A study of Homo sapiens with 12 samples.

Results

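HCT 116 and DLD1, 2 established human colorectal cancer cell lines, were compared after both had received an siRNA against BRG1. The comparison rests on the 6 siBRG1 arrays of the 12 in the series, 3 of HCT 116 and 3 of DLD1, and covers the 17687 genes with 1 symbol. It is read beside the same difference between the 6 siControl arrays, which came from the same lines given a control siRNA. The labels name no other agent, clone or genetic change, and the sources used here do not give the siRNA sequences or the time after transfection. Each sample's total RNA went onto its own Affymetrix array. The labels do not say whether the 3 samples of a group were grown separately, so each p-value reflects the scatter of these samples alone, which could be technical in origin. For 4 HCT 116 samples the number in the source name departs from that in the title, and the title was used. Each line is 1 cell line of 1 tumour, so a difference between the lines is not a difference between kinds of tumour.

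BRG1, the product of SMARCA4, is an ATPase that drives the SWI/SNF chromatin remodelling complexes, which move and evict nucleosomes at promoters and enhancers. Its paralog BRM, the product of SMARCA2, can take its place in the same complexes. In the intestine these complexes act with factors that set epithelial identity and with the Wnt pathway, which keeps crypt stem cells dividing. The lines carry different tumour mutations. HCT 116 has a stabilising CTNNB1 mutation, whereas DLD1 has truncated APC. Both lack DNA mismatch repair, DLD1 through MSH6.

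The siRNA target was low in both lines. In log2 units of the deposited table, SMARCA4 read 6.29, 6.55 and 6.31 in the DLD1 siBRG1 arrays and 6.78, 6.39 and 7.03 in the HCT 116 siBRG1 arrays, against 9.95 to 10.31 and 9.59 to 10.15 in the siControl arrays. The siBRG1 arrays of the lines overlapped, and SMARCA4 was 0.35 higher in HCT 116 (SE 0.21, adjusted p = 0.261; exact 2-sided permutation p = 0.2, where 0.1 is the smallest that 3 against 3 arrays allow). The interval of that difference ran from -0.11 to 0.80. Most of these siBRG1 values lie near the array medians of 6.36 to 6.5, where signal cannot be told from background. The comparison therefore cannot show whether the lines differ in remaining SMARCA4 transcript. SMARCA2, the paralog, did differ. Its level was 6.89, 7.38 and 6.69 in DLD1 siBRG1 and 4.56, 4.14 and 4.55 in HCT 116 siBRG1, with no overlap, a difference of -2.57 (SE 0.32, adjusted p = 1.39e-05). The HCT 116 values lie below the array medians, so the size of the SMARCA2 difference depends on the background. The control arrays showed a SMARCA2 difference of -2.22, and its change was not called (adjusted p = 0.917).

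The arrays of a group correlated with each other at 0.988 to 0.994 over all features. The siBRG1 arrays of one line correlated with those of the other at 0.943 to 0.947, and the siControl arrays at 0.943 to 0.952, while siControl and siBRG1 arrays of 1 line correlated at 0.983 to 0.994. The array medians were 6.36 to 6.5. The table carries no detection calls, so a level near or below that median cannot be told from background, and the size of a difference whose lower side lies there depends on the background. Both lines carried epithelial markers. EPCAM, an adhesion molecule of epithelial cells, averaged 16.63 in DLD1 siBRG1 and 15.66 in HCT 116 siBRG1. The DLD1 mean lies above 16, the limit of a 16-bit scanner on the log2 scale, so that level is less certain. Markers of other cell types were mostly under an array level of 6.5. Of 11 fibroblast markers 2 exceeded it in each line (range 2.83 to 8.62 in DLD1 and 3.07 to 8.17 in HCT 116), of 11 immune markers 0 in DLD1 and 2 in HCT 116 (2.97 to 6.42 and 3.10 to 7.05), and of 8 endothelial markers 1 in each (2.94 to 7.48 and 2.90 to 6.56).

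Under siBRG1 the lines differed in about as many genes as they did without it. Of the 17687 genes, 5451 were called (adjusted p under 0.05), which is 30.8% of those tested: 2485 were higher in HCT 116 (14%) and 2966 were lower (16.8%). Between the siControl arrays 4884 genes were called (27.6%), 2402 higher in HCT 116 (13.6%) and 2482 lower (14%). Centring each array on its median evened the siBRG1 split to 2695 higher and 2735 lower, and turned the siControl split to 2147 and 2647. The siBRG1 arrays of the lines did not overlap in 7489 genes (42.3%), and 5332 genes (30.1%) were both called and without overlap. Differences were often large. Among the called genes, 1325 were at least 2-fold higher and 1816 at least 2-fold lower in HCT 116 siBRG1, and 50 and 45 passed 64-fold. The matching counts in the siControl arrays were 1355, 1518, 46 and 40.

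Most line differences were present with and without the BRG1 siRNA. Of the genes called under siBRG1, 3812 were called in the same direction under siControl, which is 69.9% of the siBRG1 calls and 78.1% of the siControl calls. They comprised 1731 genes higher in HCT 116 and 2081 higher in DLD1. Across the 17687 genes, which are not independent replicates, the siBRG1 and siControl differences correlated at a Pearson r of 0.925 and a Spearman rho of 0.779. The comparisons share no array, though they share each gene's estimate of spread. A further 1632 genes were called under siBRG1 and not under siControl, and 1065 the reverse. Those counts do not show that the difference changed, and only 11 genes of each set passed the test of the change itself.

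That test asked whether the difference between lines under siBRG1 departed from that under siControl. It called 59 genes (0.334% of those tested), 28 shifted toward HCT 116 (0.158%) and 31 toward DLD1 (0.175%), while 1590 had an unadjusted p under 0.05. The split was 40 toward HCT 116 and 19 toward DLD1 when each array was centred on its median. With the replicate number of each line as a random block, 228 genes were called, including the same 59. That block treats same-numbered arrays of a line as paired, which the HCT 116 arrays numbered 2 and 3 did not show. A call made only with the block is therefore less certain. The count fell to 26 without the third DLD1 siControl array or without the third HCT 116 siBRG1 array, to 29 without the second and 30 without the third HCT 116 siControl array, to 37 without the third DLD1 siBRG1 array and to 38 without the first DLD1 siControl array. The change is also, by construction, the HCT 116 response to the siRNA minus the DLD1 response. Within a line, siBRG1 against siControl called 1230 genes in HCT 116 (6.95%) and 35 in DLD1 (0.198%). Of the 59 genes, 54 were called in the HCT 116 response and not in DLD1, 2 (CYP1A1 and VEPH1) in DLD1 and not in HCT 116, 2 (TESK2 and AHNAK2) in both, and 1 (AGAP2) in neither.

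**Figure D1:**
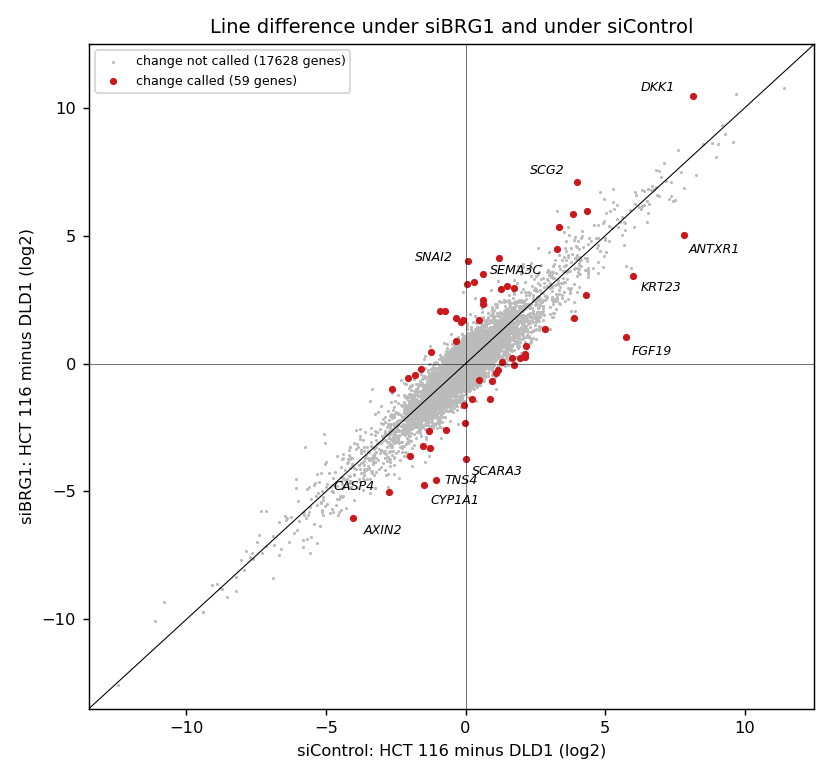
Difference between HCT 116 and DLD1 under siBRG1 (vertical axis, log2) against the same difference under siControl (horizontal axis, log2) for 17687 genes, with the line of equal difference. Most genes lie along the line (Pearson r 0.925), and the 59 genes whose change was called, in red, lie off it, FGF19 furthest below and SNAI2 furthest above.

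The 12 largest differences in favour of HCT 116 were led by GTSF1, DMKN and DKK1. GTSF1, a zinc finger protein of the piRNA pathway in germ cells, read 15.02, 14.61 and 14.48 in HCT 116 siBRG1 and 4.05, 4.41 and 3.37 in DLD1 siBRG1, a difference of 10.76 (SE 0.28, adjusted p = 6.29e-13). DMKN, a secreted protein of epidermis, stood 10.56 higher, and DKK1, a secreted Wnt inhibitor, 10.48 higher. The other 9 differed by 7.86 to 9.34. They were the amino acid transporter SLC38A5, the membrane scramblase ANO6, the organic anion pump ABCC2, the olfactory receptor OR51B5, the neurotensin receptor NTSR1, the cAMP phosphodiesterase PDE4B, the membrane protein EMP3, the cancer-testis antigen MAGEB2 and CDKN2A, the locus of the cell cycle inhibitor p16. CDKN2A read 11.41 to 11.48 in HCT 116 siBRG1 and 3.27 to 3.93 in DLD1 siBRG1, a difference of 7.86 (SE 0.22). In the 12 genes the DLD1 siBRG1 arrays lay under 6.36, the lowest array median, apart from 1 EMP3 array at 6.41.

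The 12 largest differences in favour of DLD1 were led by TM4SF1, CXCL5 and RORA. TM4SF1, a tetraspanin-like membrane protein, read 16.36, 16.31 and 16.49 in DLD1 siBRG1 and 3.83, 3.86 and 3.73 in HCT 116 siBRG1, a difference of -12.58 (SE 0.18, adjusted p = 1.56e-15). The DLD1 values of TM4SF1 lie above 16, where a 16-bit scanner reaches its limit on the log2 scale, so its level there is less certain than the distance shows. CXCL5, a chemokine for neutrophils, differed by -10.06 and the nuclear receptor RORA by -9.73. KIT, the receptor for stem cell factor, read 12.86, 12.65 and 13.14 in DLD1 and 3.97, 3.27 and 4.10 in HCT 116, a difference of -9.11 (SE 0.25). Its ligand KITLG ran the other way, 3.65 higher in HCT 116 siBRG1 (adjusted p = 3.68e-09) and 4.38 under siControl. QPCT, OLR1, TGFBI, CDH17, QNG1, AGR2, TMEM52B and SLC7A8 made up the rest, with differences between -9.72 and -8.40. CDH17 is the intestinal cadherin, AGR2 a protein disulfide isomerase of mucus-secreting cells, and TGFBI an extracellular matrix protein.

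Of these 24 genes, DKK1 alone was called for the change. Its level in HCT 116 was 11.91, 11.69 and 11.76 with siControl and 14.12, 14.43 and 14.34 with siBRG1, while the 6 DLD1 arrays read 3.13 to 4.59. The line difference was 8.16 under siControl and 10.48 under siBRG1, a change of 2.31 (SE 0.46, adjusted p = 0.048), and it kept its call in 2 of the 12 fits that each left out 1 array. For the other 23 genes the siControl difference had the same sign, from -12.46 for TM4SF1 to 11.42 for GTSF1.

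**Figure D2:**
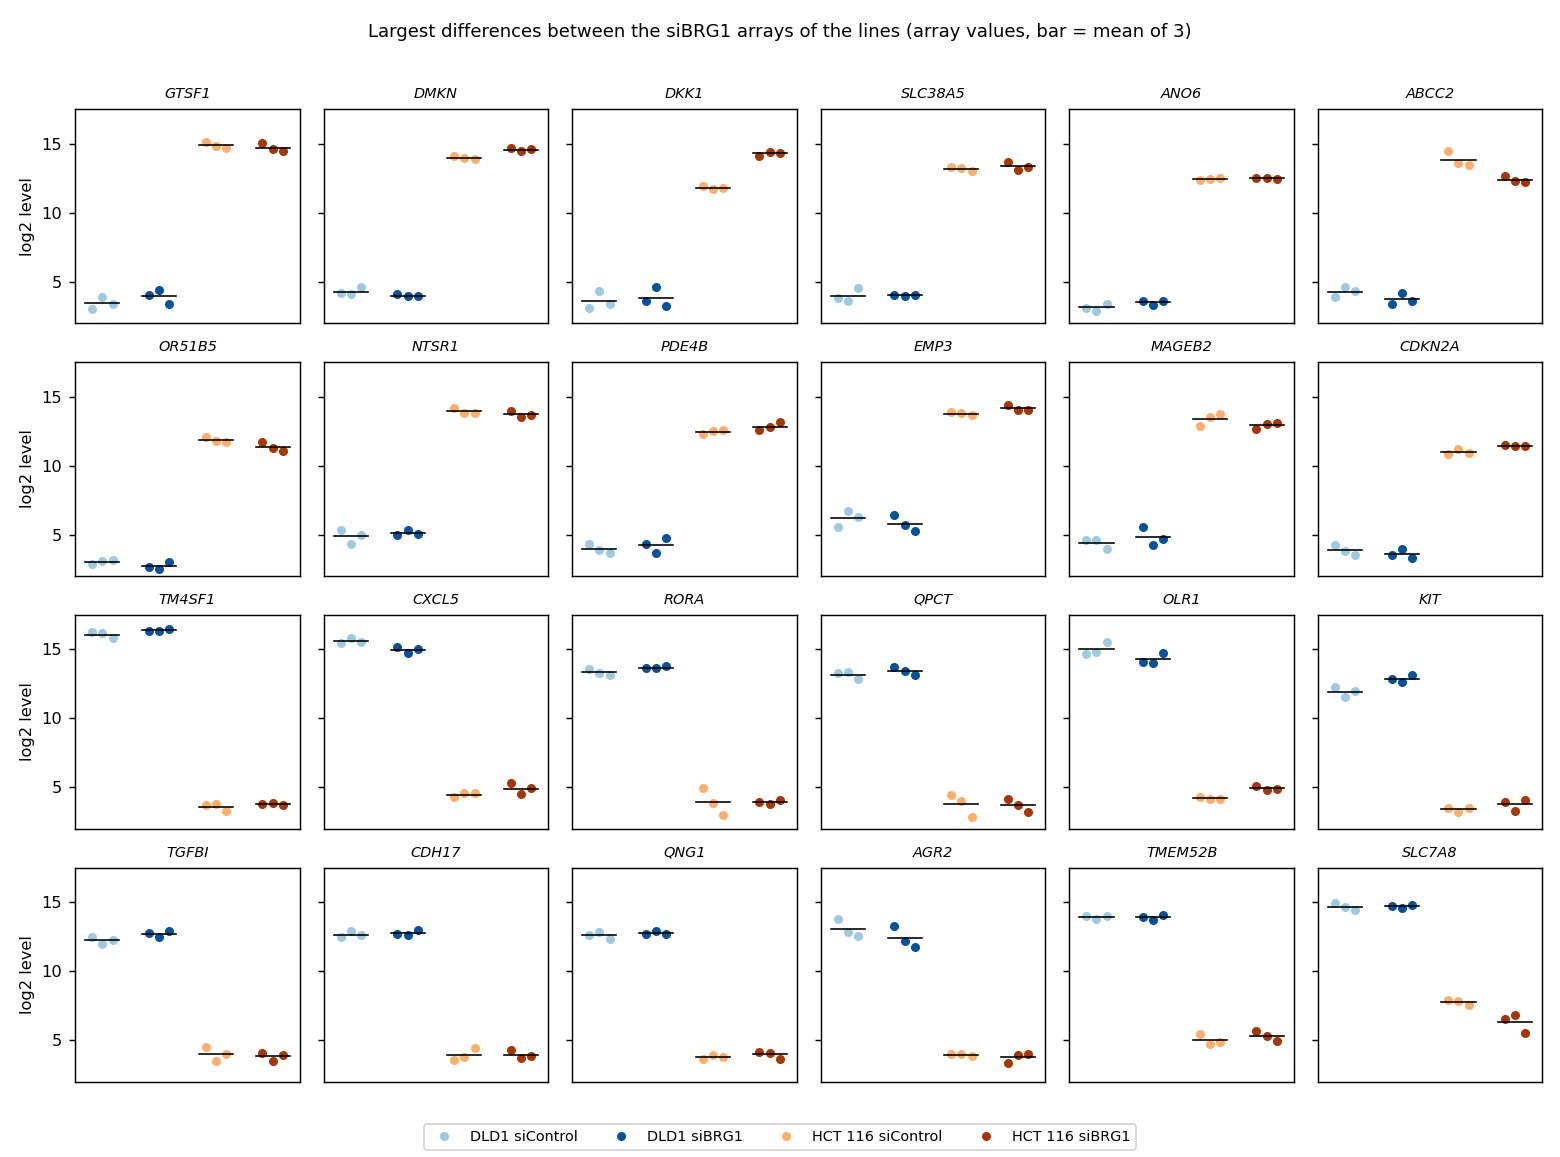
Log2 level on each array for the 12 genes most in favour of HCT 116 (upper rows) and the 12 most in favour of DLD1 (lower rows) under siBRG1. Points are arrays and bars are means of 3. In each panel both groups of one line sit far above both groups of the other, and in DKK1 the HCT 116 siBRG1 arrays (14.12 to 14.43) also sit above the HCT 116 siControl arrays (11.69 to 11.91).

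Most genes of epithelial junctions were higher in DLD1. Of 35 genes for cell junctions and their regulators, 22 were lower (62.9%, against 16.8% of all genes) and 3 higher (8.57%, against 14%) in HCT 116 siBRG1. The median difference was -0.80, against 0.03 for all genes. Under siControl 21 and 3 were called (60% and 8.57%, against 14% and 13.6%). CDH1, the E-cadherin of adherens junctions, read 13.83 to 14.34 in DLD1 and 9.18 to 9.83 in HCT 116, a difference of -4.62 (SE 0.23, adjusted p = 5.59e-10). The tight junction genes CLDN1 and CLDN2 differed by -6.52 and -4.85, and GRHL2, a transcription factor that maintains epithelium, by -2.39. ESRP1, an epithelial splicing regulator, ran against the rest at 3.39, as did the desmosomal cadherin DSC2 at 2.68. PARD6B, a polarity protein, and AP1M2, an adaptor for basolateral sorting, were the members called for the change. PARD6B changed by 1.26 and AP1M2 by -1.31, and each kept its call in 2 of the 12 fits without 1 array.

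Among transcription factors of intestinal identity more were higher in DLD1 than in HCT 116. Of 22 measured, 10 were lower (45.5%, against 16.8% of all genes) and 2 higher (9.09%, against 14%) in HCT 116 siBRG1 (median -0.81). Under siControl 11 and 1 were (50% and 4.55%, against 14% and 13.6%). FOXA1, a pioneer factor of endoderm, read 13.58, 13.05 and 13.11 in DLD1 and 5.71, 6.14 and 5.46 in HCT 116, a difference of -7.47 (SE 0.31). GATA6 differed by -4.13 and CDX2, the master regulator of intestinal fate, by -3.70. HNF4G was 1.46 and KLF4 1.16 higher in HCT 116. Among 16 markers of colorectal epithelium, 9 were lower (56.2%, against 16.8% of all genes) and 1 higher (6.25%, against 14%) in HCT 116. Of 37 enterocyte and brush border genes 5 were higher and 4 lower (13.5% and 10.8%, against 14% and 16.8% of all genes), led by the placental-type phosphatase ALPP (-4.61), EPS8L3 (-1.45) and the peptide transporter SLC15A1 (1.22). Of 19 mucin and goblet genes 1, the membrane mucin MUC3A (3.08), was higher and 4 were lower (5.26% and 21.1%), with AGR2 (-8.64) and MUC13 (-3.25) the furthest apart. In keratins, 2 of 14 were higher (14.3%, against 14%), or 1 without DLD1 siBRG1 array 1 or 3 or HCT 116 siBRG1 array 1 or 2. The 3 lower ones (21.4%, against 16.8%) included KRT80 (-4.85) and KRT18 (-1.95). The keratin shares are thus near those of all genes.

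**Figure D3:**
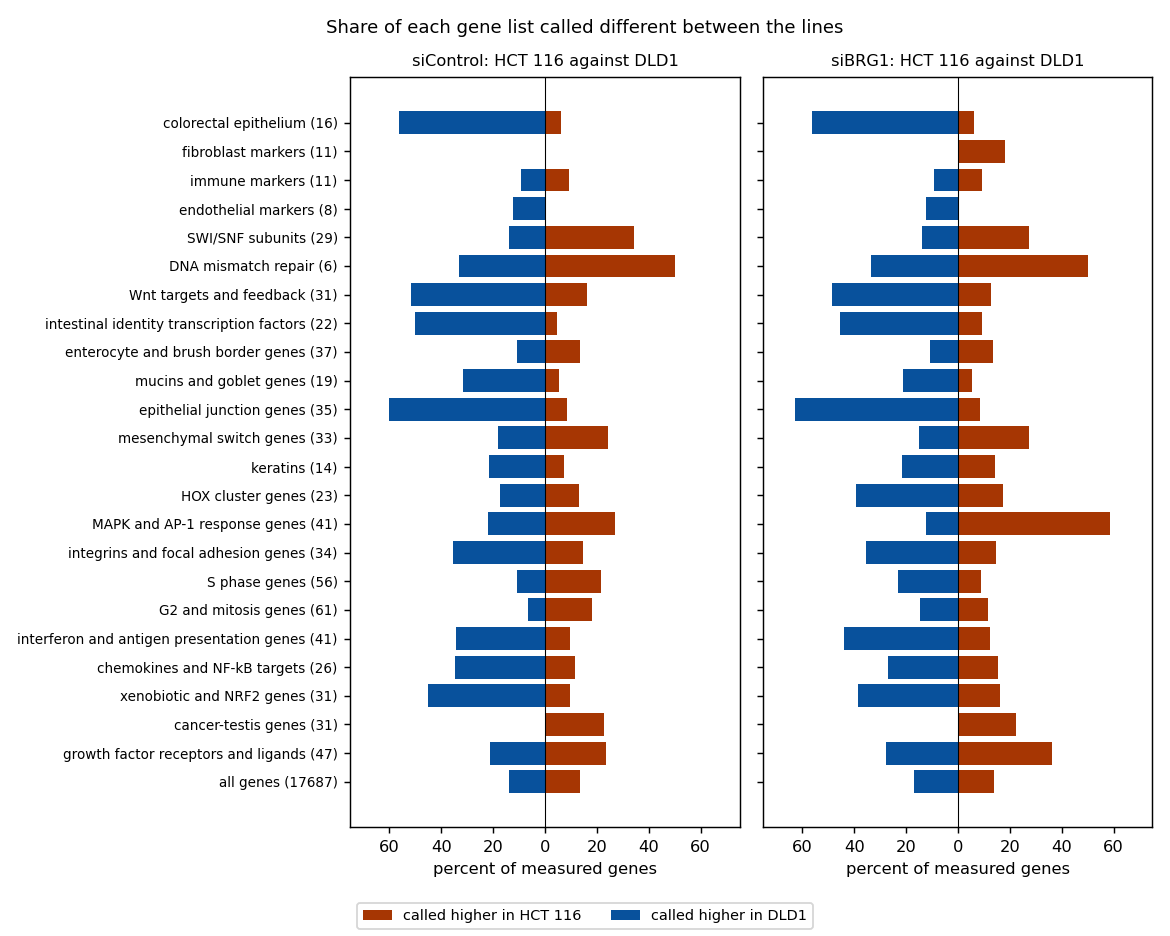
Percent of the measured genes of each list called higher in HCT 116 (right of 0) or higher in DLD1 (left of 0), under siControl and under siBRG1, with the number measured in brackets. Epithelial junction genes have 21 and 22 of 35 on the DLD1 side in the panels, MAPK and AP-1 response genes 11 and 24 of 41 on the HCT 116 side, and S phase genes go from 12 higher and 6 lower to 5 and 13 of 56.

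Genes of a mesenchymal switch split between the lines. Of 33 measured, 9 were higher (27.3%, against 14% of all genes) and 5 lower (15.2%, against 16.8%) in HCT 116 siBRG1 (median 0.07). The repressors of E-cadherin were all on the HCT 116 side where they were called: ZEB1 at 4.35, SNAI2 at 4.03 and SNAI1 at 3.49, while the TWIST genes and ZEB2 were not called. AXL, a receptor kinase, and CAV1, the caveola protein, were 3.81 and 3.61 higher. The matrix genes TGFBI and THBS1 were lower in HCT 116 (-8.88 and -7.02), and the YAP targets CCN1 and CCN2 differed by -3.73 and -2.43. Among fibroblast markers, ACTA2 (1.16) and COL1A1 (0.97) were higher in HCT 116 siBRG1 and the other 9 were not called, including PDGFRA, DCN and LUM. PDGFRA, DCN and LUM read 2.93 to 4.44 on the 6 siBRG1 arrays.

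Of 34 integrin and focal adhesion genes, 12 were lower (35.3%, against 16.8% of all genes) and 5 higher (14.7%, against 14%) in HCT 116 siBRG1 (median -0.02). The counts under siControl were also 12 and 5, where 14% and 13.6% of all genes were called. FERMT2, an integrin activator, was 1 of the 5 higher ones at 6.24, reading 10.84 to 11.23 in HCT 116 and 4.62 to 5.30 in DLD1. ITGB1, the common beta subunit, was 1.86 higher in HCT 116, whereas ITGB8, ITGB5 and ITGB6 differed by -4.83, -2.82 and -2.09. The tensins TNS3 and TNS4 differed by -5.86 and -4.56. TNS4 is 1 of the genes called for the change and is described with them.

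Of 31 Wnt target and feedback genes, 15 were higher in DLD1 under siBRG1 (48.4%, against 16.8% of all genes) and 4 in HCT 116 (12.9%, against 14%). The other 12 were not called, and the median was -0.76. Under siControl 16 and 5 were called (51.6% and 16.1%, against 14% and 13.6%). LGR5, the crypt stem cell receptor, read 9.05, 9.64 and 8.68 in DLD1 siBRG1 and 3.50, 3.56 and 3.03 in HCT 116 siBRG1, a difference of -5.76 (SE 0.26, adjusted p = 1.25e-10). LEF1, RUNX2 and TNFRSF19 differed by -4.31, -4.19 and -4.75. The hyaluronan receptor CD44 (4.07), MYC (1.86), NKD2 (0.60) and DKK1 were higher in HCT 116. The change was called for 3 members. AXIN2, the negative feedback regulator of beta-catenin, was 13.82, 13.97 and 13.85 in DLD1 siBRG1 and 7.63, 7.93 and 7.95 in HCT 116 siBRG1, and the HCT 116 siControl arrays read 10.16, 10.32 and 10.23. Its difference thus went from -4.04 to -6.05, a change of -2.01 (SE 0.23, adjusted p = 0.00117). SOX9, a progenitor factor of the crypt, went from -2.0 to -3.62, a change of -1.61 (SE 0.27, adjusted p = 0.0161), kept in 9 of the 12 fits without 1 array. DKK1, given above, moved the other way. LGR5 and LEF1 had smaller differences under siBRG1 than under siControl (-7.32 and -5.31), and these changes were not called (adjusted p = 0.0991 and 0.58), though that of LGR5 was with the random block (adjusted p = 0.0195).

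CDKN1A and PMAIP1 were both higher in HCT 116 siBRG1. CDKN1A, the cell cycle inhibitor p21, read 8.77, 8.74 and 6.95 in DLD1 siBRG1 and 14.34, 14.06 and 13.93 in HCT 116 siBRG1, a difference of 5.95 (SE 0.43, adjusted p = 3.58e-08). With siControl, CDKN1A was 7.77 to 9.05 in DLD1 and 11.21 to 11.87 in HCT 116, a difference of 3.29. The change of 2.66 was not called (adjusted p = 0.0898) but was with the random block (adjusted p = 0.0156), and 1 DLD1 siBRG1 array lay well below the others. PMAIP1, the pro-apoptotic protein NOXA, overlapped between the lines under siControl (9.66 to 10.77 in DLD1, 9.19 to 10.48 in HCT 116) and did not under siBRG1 (8.83 to 10.13 and 11.62 to 12.77). Its difference was 2.79 under siBRG1, and its change of 2.88 had an adjusted p of 0.0604, or 0.00737 with the random block.

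PHLDA3, which restrains AKT, and RPS27L, a ribosomal protein paralog, were called for the change. PHLDA3 read 7.74, 7.33 and 7.26 in HCT 116 siBRG1 and 4.89, 5.20 and 5.27 in DLD1 siBRG1, and its change was 1.70 (SE 0.28, adjusted p = 0.0179). RPS27L changed by 1.24 (SE 0.24, adjusted p = 0.039), a call that was lost in each of the 12 fits without 1 array.

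Of 56 S phase genes, 13 were lower (23.2%, against 16.8% of all genes) and 5 higher (8.93%, against 14%) in HCT 116 siBRG1 (median -0.28). Under siControl 6 were lower and 12 higher (10.7% and 21.4%, against 14% and 13.6%), with a median of 0.18. The change was negative in 53 of 56, with a median of -0.41 (-0.03 for all genes). It was negative in 9536 of all 17687 genes. After quantile normalization it was negative in 50 of the 56 (8850 of all genes), and after median centring in 48 (7551 of all genes). No S phase gene was called for the change by limma, and 1 (UNG) was called with the random block. In the negative direction 12 had an unadjusted p under 0.05, as had 967 of all 17687 genes. POLA2, a subunit of the primase complex, differed by -1.65 and the transcription factor E2F1 by -1.61, while POLE2 was 1.65 higher in HCT 116. MCM2, of the replicative helicase, read 11.51, 11.04 and 10.76 in DLD1 siBRG1 and 10.77, 9.94 and 9.84 in HCT 116 siBRG1, which overlap by 1 array, a difference of -0.92 (adjusted p = 0.0201). The 5 became 3 without DLD1 siBRG1 array 3 or HCT 116 siBRG1 array 1. Within HCT 116, 29 of the 56 were called lower with siBRG1, where 4.13% of all genes were, and the list median was -0.74. In DLD1, where 0.13% of all genes were called lower, 0 of the 56 were, and the median was -0.30. Of 61 genes of G2 and mitosis, 7 were higher (11.5%) and 9 lower (14.8%) in HCT 116 siBRG1, which is near the shares of all genes, and 12 and 5 after quantile normalization. The 7 became 4 without DLD1 siBRG1 array 3 or HCT 116 siBRG1 array 2, and the 9 became 5 without DLD1 siBRG1 array 1 or 2 or HCT 116 siBRG1 array 1. The median of that list was -0.03 as deposited and 0.06 or 0.02 after quantile normalization or median centring, so it has no settled direction.

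**Figure D4:**
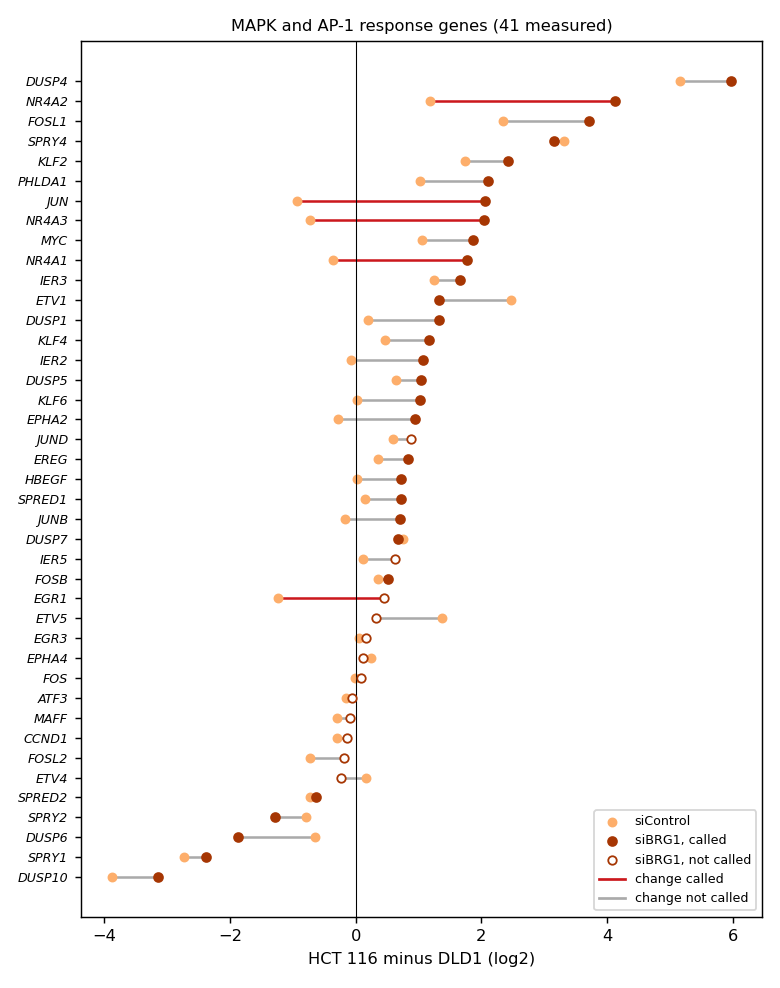
Difference between HCT 116 and DLD1 (log2) for each of the 41 measured MAPK and AP-1 response genes, under siControl (light points) and siBRG1 (dark points, open where not called). Most segments run to the right from siControl to siBRG1, 33 of 41, and the red ones mark the 5 members whose change was called.

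The genes that answer MAPK signalling within minutes to hours, and the AP-1 factors among them, stood further toward HCT 116 under siBRG1 in their counts. Of 41 measured, 24 were higher (58.5%, against 14% of all genes) and 5 lower (12.2%, against 16.8%) in HCT 116 siBRG1. Under siControl 11 and 9 were (26.8% and 22%, against 13.6% and 14%). The medians were 0.72 and 0.12, against 0.03 for all genes in both comparisons. Leaving out 1 array gave 19 to 24 higher under siBRG1, and the 9 became 5 without DLD1 siControl array 1. The change was positive in 33 of 41 (80.5%, against 46.1% of all genes), with a median of 0.49. It was called for 5 members (12.2%, against 0.158% of all genes toward HCT 116): JUN, NR4A1, NR4A2, NR4A3 and EGR1. The list was chosen with earlier results of these data known. With the random block 10 were called in that direction and 1, the ERK phosphatase DUSP6, in the other. Within HCT 116, 15 of the 41 were called higher with siBRG1, where 2.82% of all genes were, and 2 lower. In DLD1, where 0.0678% of all genes were called higher and 0.13% lower, 0 of the 41 were called.

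Proximal promoters of 3 of these genes, EGR1, JUN and NR4A3, are shown because the 5 line differences changed in 1 direction and these windows held matches. They are the 250 bases before a RefSeq start in GRCh38.p14, written 5′ to 3′ on the gene's strand, and NR4A2 is named only. Capitals mark matches on either strand to 4 motifs of this kind of gene: the CRE core TGACG, the full CRE TGACGTCA (which contains the core), the AP-1 site TGANTCA, and the CArG box bound by serum response factor. EGR1 lies at chr5:138465229-138465478 on the plus strand, JUN at chr1:58784048-58784297 on the minus strand and NR4A3 at chr9:99821635-99821884 on the plus strand.
EGR1: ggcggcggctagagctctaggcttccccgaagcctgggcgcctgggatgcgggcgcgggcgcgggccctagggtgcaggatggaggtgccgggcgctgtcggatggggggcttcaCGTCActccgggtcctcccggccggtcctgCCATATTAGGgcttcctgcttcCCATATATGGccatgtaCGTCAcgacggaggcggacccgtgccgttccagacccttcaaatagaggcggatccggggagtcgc
JUN: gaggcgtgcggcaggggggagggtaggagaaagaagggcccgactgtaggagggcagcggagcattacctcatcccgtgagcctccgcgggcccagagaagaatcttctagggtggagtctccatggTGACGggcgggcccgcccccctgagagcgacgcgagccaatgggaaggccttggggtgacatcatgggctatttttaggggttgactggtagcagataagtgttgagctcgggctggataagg
NR4A3: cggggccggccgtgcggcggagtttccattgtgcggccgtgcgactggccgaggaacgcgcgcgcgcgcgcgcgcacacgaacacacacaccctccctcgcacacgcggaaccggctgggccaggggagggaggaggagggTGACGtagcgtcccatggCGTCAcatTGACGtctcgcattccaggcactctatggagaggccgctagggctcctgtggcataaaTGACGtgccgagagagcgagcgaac
The EGR1 window held 2 CRE cores and 2 CArG boxes, the JUN window 1 core and the NR4A3 window 4 cores. None of the 3 held an exact match to TGACGTCA or TGANTCA. Near matches, such as the unmarked tgacatca and ttacctca of the JUN window, were not searched for, so their absence is not shown. The 2 NR4A1 windows (chr12:52022582-52022831 and chr12:52037465-52037714, plus strand) held none of the 4 motifs. Over 35116 RefSeq windows of the same length, 21.2% held the core, 1.65% the full CRE, 6.57% the AP-1 site and 1.16% a CArG box. A match describes letters in the window and shows no binding.

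JUN, a subunit of AP-1, read 9.02, 8.08 and 8.81 in DLD1 siBRG1 and 10.17, 11.15 and 10.78 in HCT 116 siBRG1. With siControl it was 7.19, 7.87 and 7.90 in DLD1 and 6.29, 7.07 and 6.81 in HCT 116, so HCT 116 went from the lower line to the higher. The JUN difference was -0.93 under siControl (adjusted p = 0.0349) and 2.06 under siBRG1 (adjusted p = 9.01e-05), a change of 2.99 (SE 0.44, adjusted p = 0.00777). NR4A3, an orphan nuclear receptor, was also called in opposite directions. It read 4.99, 4.71 and 4.59 in HCT 116 siControl, below the DLD1 siControl arrays at 5.37 to 5.56, and 7.08, 7.86 and 7.37 in HCT 116 siBRG1, above the DLD1 siBRG1 arrays at 5.18 to 5.52. Its change was 2.75 (SE 0.30, adjusted p = 0.000667). All NR4A3 arrays but those of HCT 116 siBRG1 lay under the lowest array median of 6.36. The siControl side of its crossing therefore lies where signal cannot be told from background.

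The related receptors also shifted toward HCT 116, without crossing between called directions. NR4A2 had a difference of 1.19 under siControl and 4.12 under siBRG1, a change of 2.93 (SE 0.48, adjusted p = 0.0146), and NR4A1 one of -0.36 and 1.77, a change of 2.13 (SE 0.32, adjusted p = 0.0102). The siControl means of NR4A2, 4.7 in DLD1 and 5.89 in HCT 116, and its DLD1 siBRG1 mean of 4.2 lie below the array medians. Its siControl difference therefore cannot be told from background. EGR1, a zinc finger factor of the immediate early response, closed a gap instead. It read 11.73, 11.73 and 11.69 in HCT 116 siControl against 12.65 to 13.10 in DLD1, and 13.82, 13.63 and 13.61 in HCT 116 siBRG1 against 13.03 to 13.56, so that the difference of 0.45 under siBRG1 was not called (adjusted p = 0.0903), though it was without the second DLD1 siBRG1 array. FOS, EGR3 and ATF3 were not called between the lines under siBRG1, with differences of 0.08, 0.16 and -0.05. The MAPK phosphatase DUSP4 (5.98), FOSL1 (3.72) and the feedback inhibitor SPRY4 (3.15) were higher in HCT 116 siBRG1, while DUSP10 (-3.14), SPRY1 (-2.38), DUSP6 (-1.87), SPRY2 (-1.28) and SPRED2 (-0.63) were lower.

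Growth factors and their receptors differed in both directions. Of 47 measured, 17 were higher (36.2%, against 14% of all genes) and 13 lower (27.7%, against 16.8%) in HCT 116 siBRG1. Under siControl 11 and 10 were (23.4% and 21.3%, against 13.6% and 14%). ERBB3, a partner of the EGF receptor family, and BMP2 differed by -3.02 and -2.44, and FGF9, PDGFA and BMP7 by 2.52, 2.28 and 1.5. TGFBR2, the type II receptor for TGF-beta, differed by -1.31, whereas the ligand TGFB1 was 1.20 higher in HCT 116.

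Of 41 interferon and antigen presentation genes, 18 were higher in DLD1 under siBRG1 (43.9%, against 16.8% of all genes) and 5 in HCT 116 (12.2%, against 14%). The other 18 were not called, and the median was -0.54. Under siControl 14 and 4 were called (34.1% and 9.76%, against 14% and 13.6%). The immunoproteasome subunits PSMB8 and PSMB9 differed by -5.60 and -2.47 and the antiviral synthetase OAS1 by -4.50, while B2M, the light chain of MHC class I, was 1.42 higher in HCT 116. Among the 11 immune markers, the macrophage markers CD68 (1.96) and CD14 (-0.73) were called in opposite directions. CD14 kept its call in 8 of the 12 fits without 1 array and lost it after median centring. The highest mean of these markers was 6.42 in DLD1 siBRG1 and 7.05 in HCT 116 siBRG1, near background. Of 26 chemokines and NF-kB targets 7 were lower (26.9%, against 16.8% of all genes) and 4 higher (15.4%, against 14%), among them CCL28 (-3.67) and the urokinase gene PLAU (2.96). Of 31 xenobiotic and NRF2 genes 12 were lower (38.7%, against 16.8%) and 5 higher (16.1%, against 14%), led by GSTM3 (-8.36), ALDH3A1 (-7.25) and ABCC2 (8.66).

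Of 23 HOX cluster genes, which set body position, 9 were lower (39.1%, against 16.8% of all genes) and 4 higher (17.4%, against 14%) in HCT 116 siBRG1. Under siControl 4 and 3 were (17.4% and 13%, against 14% and 13.6%). No HOX gene was called for the change by limma, and 3 had an unadjusted p under 0.05. HOXB9 and HOXA2 differed by -4.07 and -3.85, and HOXC9 by 4.26. Of 31 cancer-testis genes 7 were higher in HCT 116 and 0 lower in both comparisons, among them PRAME (4.36) and MAGEA3 (5.53). The share higher was 22.6%, against 14% of all genes under siBRG1 and 13.6% under siControl. The share lower was 0%, against 16.8% and 14%. Under siBRG1 the highest DLD1 mean of these genes was 6.13, below the lowest array median of 6.36. A member lower in HCT 116 siBRG1 would lie at background in both lines, so the 0% under siBRG1 does not show a direction. MAGEA3 and MAGEA6 are near-identical, so their signals cannot be separated with certainty. In DNA mismatch repair MSH6 was higher (3.52) and MSH3 lower (-3.33) in HCT 116 siBRG1, with PMS1 at 0.88. Among 29 SWI/SNF subunits 8 were higher (27.6%, against 14% of all genes) and 4 lower (13.8%, against 16.8%) under siBRG1. They included PBRM1 (-1.11), a bromodomain subunit of PBAF, and BRD9 (1.0), a subunit of ncBAF.

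The 59 genes called for the change fall into 38 whose gap between the lines widened or arose under siBRG1, 20 whose gap shrank, and 1 that changed sides without widening (SH3TC2). Of the 38, 23 ended higher in HCT 116 and 15 higher in DLD1, and 11 were not called under siControl. SNAI2, the E-cadherin repressor SLUG, read 4.84, 4.90 and 4.81 in DLD1 siControl and 4.03, 5.54 and 5.27 in HCT 116 siControl, which overlap. Under siBRG1 it read 4.59, 4.09 and 4.74 in DLD1 and 7.97, 9.02 and 8.53 in HCT 116, a 16.4-fold difference (4.03, SE 0.34, adjusted p = 2.49e-07) and a change of 3.93 (SE 0.48, adjusted p = 0.00195). SEMA3C, a secreted guidance molecule, was 9.06 to 9.56 in DLD1 siBRG1 and 12.63 to 12.94 in HCT 116 siBRG1, against 9.07 to 9.38 and 9.86 to 9.93 with siControl. Its change was 2.86 (SE 0.26, adjusted p = 9.74e-05).

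SCG2, a secretogranin of dense-core vesicles, went from 3.99 to 7.12, with the 6 DLD1 arrays at 3.02 to 3.76. The hair keratin-associated genes KRTAP2-1 and KRTAP2-2 went from 0.05 and 0.31 to 3.11 and 3.19. They are near-identical neighbours in 1 gene cluster, so they may report 1 signal. SNAI2, SCG2, SEMA3C, KRTAP2-1, KRTAP2-2, JUN and NR4A3 kept the call in each of the 12 fits without 1 array, and NR4A2 in 11.

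Of the genes that ended higher in DLD1, those other than CYP1A1, TESK2 and VEPH1 were called lower with siBRG1 in HCT 116 and not called in DLD1. SCARA3, a scavenger receptor, read 11.43, 11.48 and 11.92 in DLD1 siControl, 11.47, 11.75 and 11.67 in HCT 116 siControl, 11.66, 11.47 and 11.78 in DLD1 siBRG1 and 8.05, 7.77 and 7.89 in HCT 116 siBRG1. The siBRG1 difference was -3.74 (SE 0.18, adjusted p = 4.85e-10), 13.3-fold, and the change -3.75 (SE 0.26, adjusted p = 8.67e-06), the smallest adjusted p of the 59. TNS4, a tensin of focal adhesions, read 11.53, 12.07 and 10.85 in DLD1 siBRG1 and 7.45, 6.92 and 6.41 in HCT 116 siBRG1, and its difference went from -1.05 to -4.56. CASP4, the caspase that senses cytosolic lipopolysaccharide, went from -2.75 to -5.04, and the splicing regulator MBNL3 from -1.26 to -3.32.

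CYP1A1, the cytochrome induced by the aryl hydrocarbon receptor, differed from these in that its DLD1 arrays moved. It read 8.05, 6.60 and 7.08 in DLD1 siControl and 11.13, 9.30 and 10.58 in DLD1 siBRG1, against 5.44 to 5.93 and 4.75 to 6.17 in HCT 116. Its change of -3.27 (SE 0.64, adjusted p = 0.0464) kept the call in 3 of the 12 fits without 1 array. TESK2, a kinase of the actin regulator cofilin, rose in DLD1 from 4.16 to 4.63 up to 5.29 to 6.22, and fell in HCT 116, for a change of -2.28. VEPH1 changed by -1.91, with a DLD1 response of 1.67 (adjusted p = 0.00566).

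Of the 20 gaps that shrank, 15 had been in favour of HCT 116 and 5 in favour of DLD1, and 11 were no longer called under siBRG1. FGF19, the bile acid-responsive hormone of the ileum, read 10.50, 10.26 and 10.14 in HCT 116 siControl and 6.67, 5.97 and 5.51 in HCT 116 siBRG1, against 4.28 to 5.19 in the 6 DLD1 arrays. Its line difference of 5.74, or 53.3-fold, became 1.03, or 2.05-fold, a change of -4.70 (SE 0.39, adjusted p = 5.24e-05). What was left under siBRG1 was called (adjusted p = 0.00991), but not without the first HCT 116 siBRG1 array. Both siBRG1 means, 5.02 in DLD1 and 6.05 in HCT 116, lie under the lowest array median of 6.36, where signal cannot be told from background. KRT23, a keratin, went from 5.99 to 3.42, PHLDB2, a cortical anchor of microtubules, from 3.87 to 1.79, and ANTXR1, a collagen-binding anthrax toxin receptor, from 7.81 to 5.03. The ANTXR1 call was kept in 1 of the 12 fits.

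Other gaps closed to values that were not called. HAPLN3, a hyaluronan link protein, went from 2.14 to 0.25 and kept the call for its change in the 12 fits without 1 array, whereas VWA1 (1.75 to -0.06), DNER (2.12 to 0.38) and PRF1 (1.95 to 0.22) kept it in 1 or 2. Among gaps once in favour of DLD1 were EGR1, given above, the cytokine receptor chain IL2RG (-2.62 to -0.98), the SNARE protein STX11 (-2.05 to -0.55), S100P (-1.82 to -0.43) and the ubiquitin ligase MID2 (-1.59 to -0.22), of which IL2RG and STX11 were still called under siBRG1. STX11 kept its call in the 12 fits, EGR1 in 11, IL2RG in 5, MID2 in 3 and S100P in 1. The levels of DNER, GPER1, HAPLN3, PLXND1, SH3TC2, STX11 and TESK2 averaged under the lowest array median in the 4 groups, so these 7 changes lie where signal cannot be told from background.

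**Figure D5:**
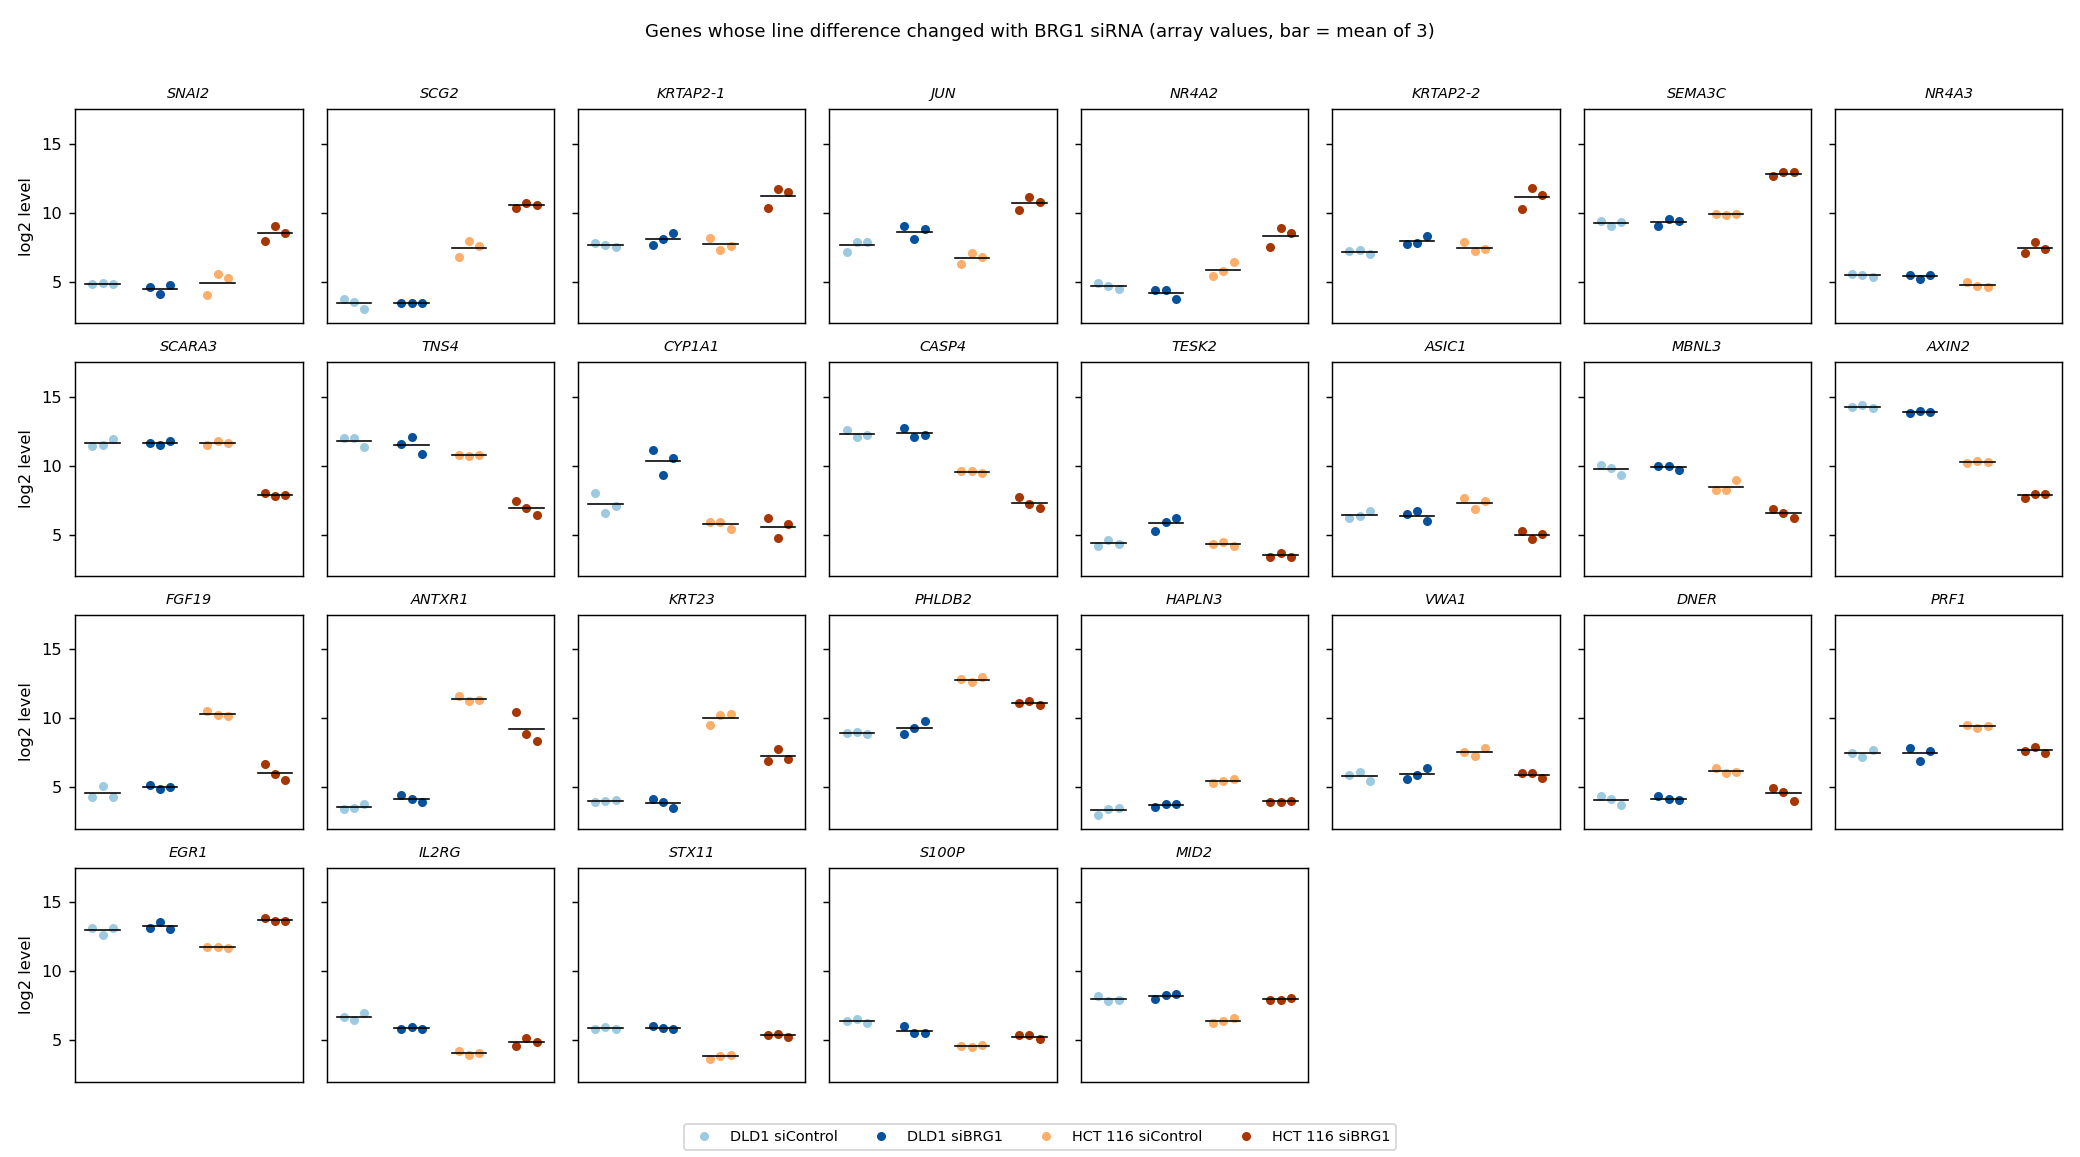
Log2 level on each array for the genes with the largest called changes, by row: gaps that widened toward HCT 116, gaps that widened toward DLD1, gaps in favour of HCT 116 that shrank, and gaps in favour of DLD1 that shrank. Points are arrays and bars are means of 3. The HCT 116 siBRG1 arrays stand apart from the HCT 116 siControl arrays in most panels, and the DLD1 arrays with and without siBRG1 also stand apart in some, furthest in CYP1A1 (a DLD1 response of 3.09).

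In 7 genes the lines were called in opposite directions with and without the siRNA. ASIC1, an acid-sensing ion channel, read 6.88 to 7.62 in HCT 116 siControl, above 6.17 to 6.71 in DLD1, and 4.66 to 5.28 in HCT 116 siBRG1, below 5.97 to 6.69 in DLD1. Its difference went from 0.88 to -1.39, a change of -2.27 (SE 0.35, adjusted p = 0.0109). The siBRG1 means of ASIC1, 6.38 in DLD1 and 4.99 in HCT 116, lie near or below the array medians. The siBRG1 side of its crossing therefore depends on the background. SH3TC2 went from 0.96 to -0.68 and ORC3, a subunit of the origin recognition complex, from 0.47 to -0.63, which lost its call for the change in each of the 12 fits. TIGAR, a regulator of glycolysis, went from -0.57 to 0.55, and its change of 1.11 was not called (adjusted p = 0.1, or 0.0221 with the random block). The siBRG1 call was lost for TIGAR without DLD1 siBRG1 array 1 or 2 or HCT 116 siBRG1 array 2 or 3, and for SH3TC2 without DLD1 siBRG1 array 1 or HCT 116 siBRG1 array 3. SCLY, which recycles selenium, went from 0.53 to -0.54, with no call for its change (adjusted p = 0.129, or 0.0422 with the random block). JUN and NR4A3 are the others. In each of the 7, the response to the siRNA was called in HCT 116 and not in DLD1.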

How the data were processed

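Total RNA of 12 samples was measured on Affymetrix arrays. The submitters' processing notes name RMA and Affymetrix Power Tools, and the values the authors deposited are on a log2 scale. Tool versions and build: not given in the sources used here. No scanner files were used. RMA corrects background, makes the arrays' distributions alike and summarises probes, so a shift of most genes would be reduced. Values ran from 2.16 to 18.05, and 94 to 112 values per array exceeded 16, and what put them there is not known. Of 21448 features, 17709 had 1 symbol in the platform annotation, 0 had several and 3739 had none. The brightest feature was taken for 20 genes, which left 17687.

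The 4 group means were fitted over the 12 arrays with limma 3.58.1 in R 4.3.3 (8 residual degrees of freedom), with Benjamini-Hochberg adjustment over 17687 genes and calls at an adjusted p under 0.05. Adjusted p-values in the text come from this fit unless an exact permutation test is named. Differences are HCT 116 minus DLD1. The number of arrays, 3 per group, limits the precision.

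The members and the 24 gene lists were chosen with earlier results of these data known. Genes named are SMARCA4, SMARCA2, the 12 largest differences in each direction, the 8 largest widened and shrunken gaps in each direction, 5 crossed genes and up to 3 members per list. The results of 1 list are not reported here. Further members were named after their values were seen. Same-numbered arrays of the 2 lines did not deviate together (correlations of -0.125 to 0.105), while those of DLD1 did (0.291 to 0.485). In HCT 116 those numbered 1 did (0.299). Those numbered 2 and 3 (0.149 and 0.028) correlated less than the best pairs of unlike number (0.229 and 0.043). The random block used 1 correlation, 0.282, for both lines. Promoter sequences are from RefSeq, GRCh38.p14.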

Additional observations from a re-analysis of the deposited data

Results flagged for a closer look

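For 40 of the genes named above, the test of the change found that the difference between HCT 116 and DLD1 under siBRG1 departed from that under siControl, which is also a difference between the lines in their response to the siRNA. Values are that change in log2 units, positive toward HCT 116.

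Changes toward HCT 116 among transcription factors were 3.93 for SNAI2, 2.99 for JUN, 2.93 for NR4A2, 2.75 for NR4A3, 2.13 for NR4A1 and 1.68 for EGR1. Among secreted proteins they were 3.13 for SCG2, 2.86 for SEMA3C and 2.31 for DKK1. The near-identical KRTAP2-1 and KRTAP2-2 had 3.05 and 2.87. PHLDA3 and RPS27L had 1.70 and 1.24. The others were IL2RG at 1.65, AHNAK2 at 1.52, STX11 at 1.5, S100P at 1.39, MID2 at 1.37, PARD6B at 1.26 and AGAP2 at 1.24.

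Changes toward DLD1 were -4.70 for the hormone FGF19, -3.75 for SCARA3, -3.50 for TNS4, -3.27 for CYP1A1, -2.78 for ANTXR1 and -2.57 for KRT23. CASP4, TESK2, ASIC1, PHLDB2 and MBNL3 had -2.29, -2.28, -2.27, -2.08 and -2.06. The Wnt targets AXIN2 and SOX9 had -2.01 and -1.61. VEPH1, HAPLN3, VWA1, PRF1 and DNER had -1.91, -1.89, -1.81, -1.74 and -1.74, and SH3TC2 and AP1M2 had -1.64 and -1.31.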

How the results depend on the processing

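The count of genes whose line difference changed depended most on the settings. Against 59, it was 228 with line and replicate number as a random block, 162 with array weights, 39 over features above the median level, 16 at an adjusted p under 0.01, 8 with a minimum change of 1.5-fold, and 26 to 71 when 1 array was left out. The minimum change of 1.5-fold also lowered the siBRG1 calls to 2285, the siControl calls to 1994 and the shared calls to 1597, since it asks for a larger effect. Leaving out 1 array gave 4642 to 5663, 4135 to 4956 and 3387 to 3603. The replicate number as a block across lines, where same-numbered arrays were not paired, gave 5648 siBRG1 calls, 5066 siControl calls, 3954 shared and 56 changes. Gene by gene, the alternatives were run for the genes picked by rule and the 59 called for the change. Further members named here, such as SNAI1, AXL and CAV1, were not checked this way. Among the genes run, no called difference or change turned sign, while the uncalled siBRG1 differences of PRF1 (-0.05 to 0.42) and VWA1 (-0.24 to 0.17) did. Of 126 called siBRG1 differences among the genes run, 120 kept their call in the 12 fits without 1 array, and CD14, FGF19, PLXND1, SH3TC2, STX11 and TIGAR did not. Of the 59 changes 22 did, and 8 (AXIN2, FGF19, NR4A3, SCARA3, SCG2, SEMA3C, SNAI2 and TNS4) held in the other settings too. Except as named, the cause was not tested. Signal near background limits the low genes: 824 siBRG1 calls had both means under 6.36.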
